A study of Mus musculus with 30 samples.

Results

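The expression of 8 genes of hormone and transmitter signalling was followed across whole forebrain and isolated microglia of mice that lost interleukin-34 (IL-34). They are 5 receptors that couple to G proteins, Gpr165, Adra2a, Adrb1, Vipr1 and Gpr183, with 1 G protein alpha subunit, Gna15, and 2 regulators of G protein signalling, Rgs10 and Rgs2. All 8 of 8 were found by symbol among the 51752 genes of the count table. The 8 genes were chosen from their arm differences in results of these same data, so their levels and differences between the arms, alone or between tissues, are given as a description. Where the number of them past the edgeR threshold in those comparisons is printed, the choice of genes fixed it in part, it stands beside the share of all genes, and nothing is rested on it.

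The deletion experiment compared Il34 heterozygotes (Het, 4 mice) with Il34 knockouts (KO, 3 mice), so its control arm carries 1 deleted copy of the gene. The antibody experiment compared wild-type mice given anti-IL34 (4 mice) with wild-type mice given the control antibody anti-gp120 (4 mice). Each mouse gave 1 forebrain library from 1 hemisphere and 1 library of cells pulled from the opposite hemisphere with beads against CD11b, a surface protein of microglia and of other myeloid cells. The latter is called the isolate, and 15 mice gave 30 libraries. Age, antibody dose and schedule are not given in the sources used here, the Het and anti-gp120 arms had 2 males and 2 females each, the KO arm had 1 male (animal 3), and the anti-IL34 arm had 1 female (animal 11). Animal numbers were given within each experiment, so Het animal 1 and anti-gp120 animal 1 are different mice, as are KO animal 24 and anti-IL34 animal 24.

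G protein-coupled receptors sit in the plasma membrane and pass the binding of a hormone, transmitter or lipid to a trimeric G protein. The alpha subunit then raises or lowers cyclic AMP (Gs and Gi families) or drives phospholipase C (Gq family), and RGS proteins end the signal by speeding the hydrolysis of GTP on the alpha subunit. Microglia, the resident macrophages of the brain, depend on signalling through the receptor Csf1r, for which IL-34 is a ligand made largely by forebrain neurons, and they read noradrenaline, peptides and oxysterols through receptors of these classes.

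Levels are CPM, that is counts divided by the scaled size of the library, and the libraries held 15.1 to 75.2 M counts in forebrain and 15.8 to 50.5 M in the isolates. Il34 itself was at 21.4 ± 2.37 CPM (SD, n = 4) in Het and 7.72 ± 0.991 (SD, n = 3) in KO forebrain, and at 36.1 ± 3.03 and 38.3 ± 2.15 (SD, n = 4 each) in anti-gp120 and anti-IL34 forebrain. In the isolates it was at 7.41 ± 2.03 CPM in Het and 6.02 ± 0.787 in KO mice, where the arms overlapped. It was at 13.1 ± 2.99 in anti-gp120 and 16.1 ± 1.32 in anti-IL34 isolates. The isolates carried microglial RNA in every library, and 9 of the 10 microglia markers listed (all but Fcrls, which was not analysed here) were higher in the isolates than in forebrain in the control mice. Their summed level was 10250 to 18150 CPM in Het and 3955 to 4525 in KO isolates, and 13110 to 17790 in anti-gp120 and 5749 to 8830 in anti-IL34 isolates. RNA of other cells was also present: the summed neuron markers were at 134 to 471 CPM in Het and 445 to 703 in KO isolates, and at 222 to 659 in anti-gp120 and 487 to 840 in anti-IL34 isolates. The astrocyte sum was 2468 to 8689 CPM in Het and 9886 to 12290 in KO isolates, and 3586 to 14740 in anti-gp120 and 7761 to 14560 in anti-IL34 isolates. Of 8 neuron markers 0 passed by edgeR in KO isolates (3 at an unadjusted p under 0.05, and 3 higher by DESeq2), and of 5 astrocyte markers likewise 0 passed (3 unadjusted, and 3 higher by DESeq2). Of 2 tested markers of noradrenergic and cholinergic neurons, Dbh was called higher there by edgeR, as were 26 of all 18185 genes, and 0 by DESeq2. That list summed to at most 1.21 CPM in Het and 1.29 in KO isolates. In anti-IL34 isolates edgeR passed 0 of the 8 neuron markers (5 unadjusted, and 2 higher by DESeq2) and 0 of the 5 astrocyte markers (0 unadjusted, and 0 by DESeq2). The oligodendrocyte lineage sum was 2823 to 9291 CPM in Het and 7223 to 16680 in KO isolates, and 3699 to 9110 in anti-gp120 and 5560 to 11950 in anti-IL34 isolates. The neutrophil and monocyte sum was 26.1 to 39.9 CPM in Het, 26.7 to 57.1 in KO, 35.4 to 249.9 in anti-gp120 and 113 to 354 in anti-IL34 isolates. Border-associated macrophages, myeloid cells that can also carry CD11b, had a marker sum of 733 to 909 CPM in Het, 389 to 808 in KO, 521 to 974 in anti-gp120 and 361 to 516 in anti-IL34 isolates. A choroid plexus sum of 1123 to 3838 CPM was present in the isolates of the deletion experiment, against 4.01 to 7.82 in anti-gp120 and 5.17 to 2089 in anti-IL34 isolates. The part these differences in cell content play in the values below was not tested.

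Promoter sequence upstream of the start was available from RefSeq (GRCm38.p6) for 8 of 8 members, and 4 stretches are shown: Gna15 and Rgs2, each with 2 matches of a motif, and Gpr165 and Gpr183, the receptors with the largest differences in the isolates of the deletion experiment. Motifs were searched on both strands over the 250 bases upstream of the RefSeq start: GAGGAA, the core bound by the macrophage factor PU.1, TGACGTCA, the cyclic AMP response element, TGACG, the short form contained in it, and TATAAA, the TATA box. Capitals mark each match of the PU.1 core or the short cyclic AMP form. GAGGAA was held by 1 of the 8 members, Gna15, and by 23.3% of 32851 promoters of that length. TGACG was held by 4 of the 8, Adra2a, Adrb1, Vipr1 and Rgs2, and by 17.8% of promoters, the full site TGACGTCA by 0 of 8 and 1.55%, and TATAAA by 2 of 8, Gpr165 and Adra2a, and 12.4%. The printed stretches are those windows cut where the gene begins in either annotation, so they are 223, 248, 250 and 238 bases long for Gpr165, Gpr183, Gna15 and Rgs2, and the TATAAA of Gpr165 runs past the cut and is not shown whole. They run 5′ to 3′ on the strand of the gene, from chrX:96713218-96713440 (plus strand) for Gpr165, chr14:121965196-121965443 (minus) for Gpr183, chr10:81524226-81524475 (minus) for Gna15 and chr1:144004162-144004399 (minus) for Rgs2.
Gpr165: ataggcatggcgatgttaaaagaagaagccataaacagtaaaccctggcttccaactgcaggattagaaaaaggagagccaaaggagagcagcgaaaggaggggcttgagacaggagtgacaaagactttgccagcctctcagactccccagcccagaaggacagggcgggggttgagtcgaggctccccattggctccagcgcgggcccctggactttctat
Gpr183: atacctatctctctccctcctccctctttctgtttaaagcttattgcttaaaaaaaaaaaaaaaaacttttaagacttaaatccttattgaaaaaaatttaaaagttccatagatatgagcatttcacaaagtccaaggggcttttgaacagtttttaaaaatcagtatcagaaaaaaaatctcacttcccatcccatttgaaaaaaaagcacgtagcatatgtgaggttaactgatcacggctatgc
Gna15: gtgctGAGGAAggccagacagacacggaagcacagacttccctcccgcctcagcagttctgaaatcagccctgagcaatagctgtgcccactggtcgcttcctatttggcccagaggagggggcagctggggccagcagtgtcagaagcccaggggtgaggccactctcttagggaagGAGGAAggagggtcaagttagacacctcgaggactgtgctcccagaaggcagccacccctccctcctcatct
Rgs2: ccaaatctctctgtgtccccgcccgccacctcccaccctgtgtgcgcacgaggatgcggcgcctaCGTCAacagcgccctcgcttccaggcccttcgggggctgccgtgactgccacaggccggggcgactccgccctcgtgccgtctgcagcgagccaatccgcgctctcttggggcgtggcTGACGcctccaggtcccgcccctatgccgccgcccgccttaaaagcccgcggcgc
Gna15 carried GAGGAA at 2 places and Rgs2 carried TGACG at 2 places, 1 on each strand. The Gpr165 and Gpr183 stretches held neither of the capitalised motifs, and they differed in base composition, with 54.7% G and C in Gpr165 against 31.9% in Gpr183. A match is a run of letters and not a measured binding site.

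The first question was how far the 8 genes are concentrated in the isolate, which was tested in the 8 control mice (Het and anti-gp120) by comparing isolate with forebrain. All 8 members passed, at a background of 84.1% of 18752 genes in either direction, and 6 were higher in the isolate, against 40.8% of all genes. The median log2 difference of the members was 3.14, against -0.04 over all genes. Gpr183, the receptor for dihydroxylated oxysterols that guides immune cell migration, stood 8.38 ± 0.28 (log2, SE) higher in the isolate (edgeR, adjusted p = 1.94e-13), and Gna15, the promiscuous Gq-family subunit of blood cells, 5.92 ± 0.17 higher (adjusted p = 4.58e-14). Rgs10, an RGS protein with high expression in microglia, was 3.59 ± 0.09 higher (adjusted p = 2.13e-14) and the orphan receptor Gpr165 3.32 ± 0.14 higher (adjusted p = 3.02e-12). Rgs2, which acts chiefly on Gq subunits, was 2.96 ± 0.15 higher (adjusted p = 2.55e-11). Rgs2 is inducible, and 13 of 13 immediate early genes, which cell handling also switches on, were higher in the isolate, at a median of 4.38. Their part in the Rgs2 difference was not tested. Adra2a, the Gi-coupled alpha-2A adrenergic receptor, was 1.37 ± 0.15 higher (adjusted p = 2.88e-07). Markers of endothelial and mural cells were also higher in the isolate, 6 of 6 at a median of 2.05. A higher level there therefore does not by itself place a gene in microglia.

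The other 2 receptors went against the microglial name of the group. Vipr1, the Gs-coupled receptor for vasoactive intestinal peptide and PACAP, was lower in the isolate, at a difference of -0.63 ± 0.09 (log2, SE; adjusted p = 3.43e-06), and Adrb1, the Gs-coupled beta-1 adrenergic receptor, was lower too, at -0.54 ± 0.09 (adjusted p = 6.42e-05). These calls held with the mouse as a replicate block and in 8 of 8 fits that left out 1 control mouse. Expressed as a ratio, the forebrain level was 0.26% of the isolate level for Gpr183 in Het mice, 1.32% for Gna15, 8.31% for Rgs10, 12.4% for Gpr165, 14.7% for Rgs2, 38.9% for Adra2a, 163% for Adrb1 and 176% for Vipr1. For comparison, the sum of the 9 microglia markers was 1.83% in the same mice. Of the 8 genes, Gpr183 and Gna15 had ratios below that of the markers. Their forebrain counts were small, at 5 to 66 reads per library for Gpr183 and 9 to 195 for Gna15.

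Per length, by the authors' TPM, in which the count is divided by the whole gene span with its introns, the order in anti-gp120 isolates was Rgs2 at 1688 ± 186 (SD, n = 4), Gpr183 at 404 ± 80.5, Gpr165 at 331 ± 18.2, Adra2a at 132 ± 13.04, Gna15 at 94.7 ± 17.03, Rgs10 at 82.2 ± 7.80, Adrb1 at 22.8 ± 1.87 and Vipr1 at 11.1 ± 0.657. The neighbours Gpr183 and Gpr165, and Gna15 and Rgs10, differed by less than the larger SD of each pair, but by more than the smaller. Spans exceed the exonic bases by far for Rgs10 (45138 against 1711), Gna15 (21920 against 2135), Vipr1 (30239 against 5800), Gpr183 (12645 against 2887) and Adrb1 (10915 against 3382), and less so for Gpr165 (5948 against 4545) and Rgs2 (4824 against 3627), while Adra2a is 1 exon of 4832 bases. The printed order therefore holds for this scale and need not hold per exonic base. In forebrain of the same mice Rgs2 was again first, at 304 ± 33.4 TPM, followed by Adra2a at 80.9 ± 8.47, Adrb1 at 47.8 ± 5.51, Gpr165 at 43.2 ± 10.1, Vipr1 at 24.6 ± 1.67, Rgs10 at 11.01 ± 0.714, Gna15 at 3.12 ± 0.347 and Gpr183 at 2.37 ± 0.725. There Adrb1 and Gpr165 differed by less than either SD.

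**Figure D1:**
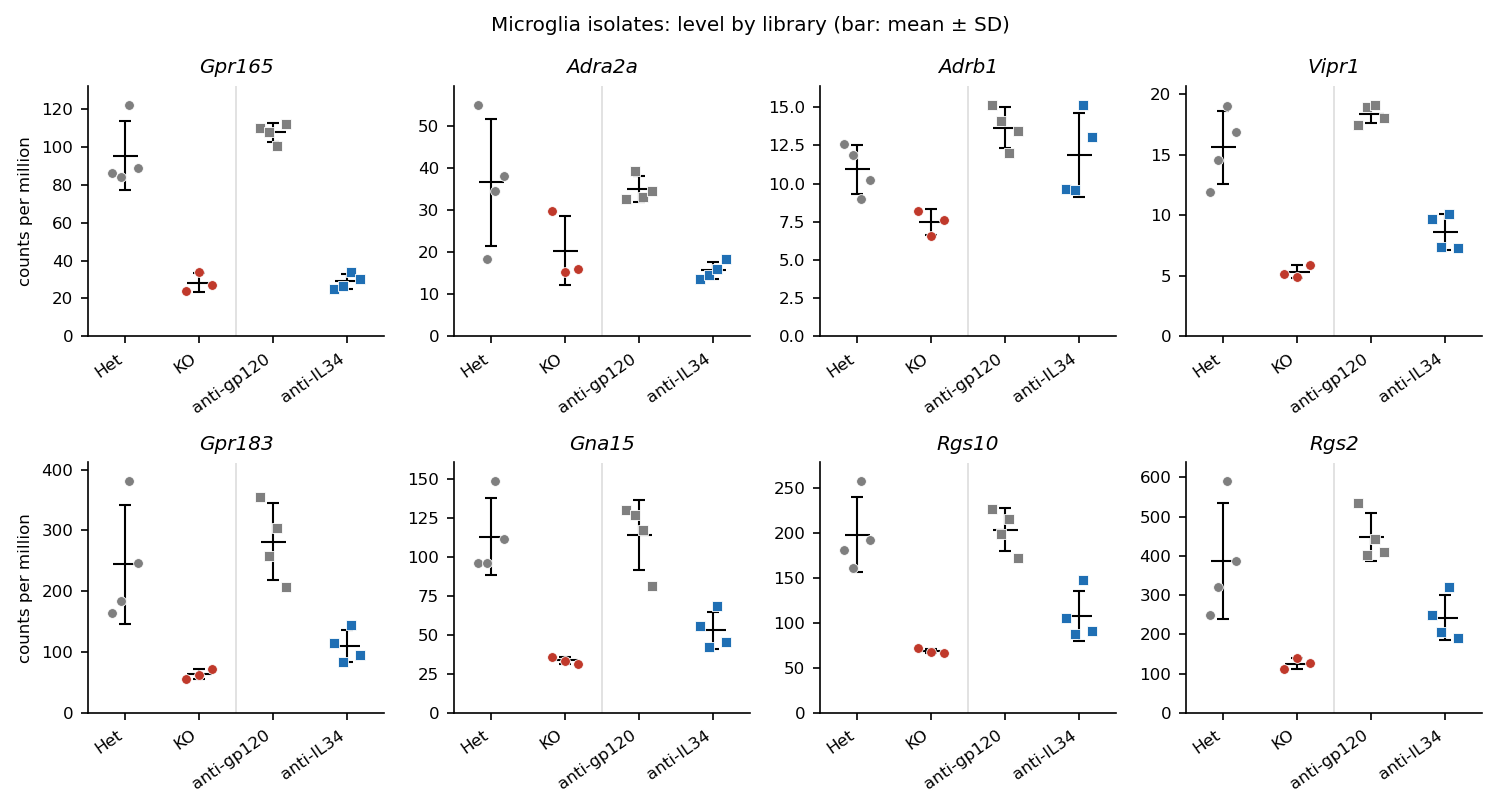
Level in each microglia isolate, in CPM on linear axes that start at 0. Points are libraries, grey for the controls, red for KO and blue for anti-IL34, and bars are the mean ± SD (n = 4, and 3 for KO). Gpr165 is below every control in both experiments, while Adra2a in the deletion experiment and Adrb1 in the antibody experiment overlap.

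The main comparison asked how the 8 genes stood in isolates after loss of IL-34. In the deletion experiment 7 of 8 members were lower in every KO isolate than in every Het isolate, at a background of 19.4% of genes, and 6 of 8 were past the threshold in the lower direction, at a background of 5.22% of 18185 genes. In the antibody experiment 7 of 8 were likewise non-overlapping, against 13.1% of genes, and 3 of 8 were past it, against 0.603% of 17570 genes. These counts describe genes chosen from the same contrasts, and nothing is read from them. The members' median log2 fold change was -1.58 in KO and -1.05 in anti-IL34 isolates, beside 0.02 and 0.06 over all genes. The 9 microglia markers had medians of -1.53 and -0.99 in the same fits. Values for each library follow in the order Het animals 1, 20, 21 and 23, KO animals 3, 6 and 24, anti-gp120 animals 1, 7, 8 and 15, and anti-IL34 animals 2, 10, 11 and 24.

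Among the receptors, the orphan Gpr165 (X chromosome, 96713441 to 96719388 in GRCm38, plus strand) was at 86.2, 84.4, 122 and 88.7 CPM in Het isolates and at 24.0, 33.8 and 27.0 in KO isolates. It was at 110.1, 108, 101 and 112 CPM in anti-gp120 isolates and at 24.9, 26.7, 34.1 and 30.5 in anti-IL34 isolates. The arms stood wide apart in both experiments, with the highest library of each loss arm below the lowest control. The log2 fold change was -1.74 ± 0.19 (SE) for KO and -1.84 ± 0.12 for anti-IL34, that is 29.9% and 28.0% of the control level.

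Adra2a (chromosome 19, 54044151 to 54048982, plus strand) was at 55.1, 18.5, 34.6 and 38.1 CPM in Het and 29.8, 15.3 and 15.9 in KO isolates. The KO male, animal 3, was above the lowest Het isolate, so the arms overlapped, and the log2 fold change was -0.75 ± 0.29. In the antibody experiment Adra2a was at 32.7, 39.4, 33.2 and 34.5 CPM in anti-gp120 and 13.7, 14.7, 15.99 and 18.4 in anti-IL34 isolates. There the arms were separate and the log2 fold change was -1.14 ± 0.14. The wide Het spread came from animal 20 at the low end and animal 1 at the high end.

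Adrb1 (chromosome 19, 56722199 to 56733113, plus strand) was at 12.6, 11.9, 9.02 and 10.2 CPM in Het and 8.23, 6.56 and 7.64 in KO isolates, a narrow gap without overlap. It was at 15.2, 14.1, 11.97 and 13.4 CPM in anti-gp120 and 9.64, 9.56, 15.2 and 13.1 in anti-IL34 isolates, where the arms overlapped. The log2 fold changes, -0.53 ± 0.19 for KO and -0.16 ± 0.19 for anti-IL34, were the smallest of the 8.

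Vipr1 (chromosome 9, 121642716 to 121672954, plus strand) was at 11.9, 14.6, 19.0 and 16.9 CPM in Het and 5.14, 4.94 and 5.93 in KO isolates. It was at 17.5, 18.9, 19.2 and 18.01 CPM in anti-gp120 and 9.70, 7.42, 10.1 and 7.31 in anti-IL34 isolates. Neither experiment showed overlap, and the log2 fold changes were -1.55 ± 0.20 and -1.03 ± 0.14. Although Vipr1 was higher in forebrain than in isolates in control mice, its isolate fold changes lay near the microglia marker medians of -1.53 and -0.99.

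Gpr183 (chromosome 14, 121952551 to 121965195, minus strand) lies wholly within the span of Ubac2 on the other strand, without shared exons, and strand use in counting is not given in the sources used here, so its count may hold reads of Ubac2. Gpr183 was at 164, 184, 381 and 247 CPM in Het and 55.9, 62.2 and 72.0 in KO isolates. It was at 355, 258, 304 and 208 CPM in anti-gp120 and 115, 83.8, 144 and 94.9 in anti-IL34 isolates. All loss-arm isolates were below all controls, and the log2 fold changes were -1.91 ± 0.32 and -1.32 ± 0.23. Ubac2 itself was at 49.0 ± 0.811 CPM (SD, n = 4) in Het and 38.3 ± 0.331 (SD, n = 3) in KO isolates, and in forebrain at 33.5 ± 1.97 and 32.01 ± 1.496, far above the forebrain level of Gpr183.

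The alpha subunit Gna15 (chromosome 10, 81502306 to 81524225, minus strand) was at 96.2, 96.1, 149 and 112 CPM in Het and 36.0, 33.6 and 31.6 in KO isolates. It was at 131, 127, 118 and 81.2 CPM in anti-gp120 and 55.9, 42.2, 68.7 and 45.8 in anti-IL34 isolates. Both experiments were without overlap, although anti-gp120 animal 15 and anti-IL34 animal 11 came close, and the log2 fold changes were -1.70 ± 0.17 and -1.07 ± 0.21.

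Rgs10 (chromosome 7, 128373621 to 128418758, minus strand) was at 181, 162, 258 and 192 CPM in Het and 71.9, 68.0 and 66.7 in KO isolates. It was at 227, 199.5, 216 and 172 CPM in anti-gp120 and 106, 87.5, 148 and 90.7 in anti-IL34 isolates. The KO isolates were tightly grouped and anti-IL34 animal 11 was the highest of its arm, and the log2 fold changes were -1.47 ± 0.16 and -0.86 ± 0.18.

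Rgs2 (chromosome 1, 143999338 to 144004161, minus strand) was at 248.6, 321, 590.3 and 386 CPM in Het and 111, 139 and 127 in KO isolates. It was at 535, 403, 442 and 409 CPM in anti-gp120 and 250, 207, 319.9 and 191 in anti-IL34 isolates. The arms did not overlap, Het animal 21 stood high, and the log2 fold changes were -1.60 ± 0.31 and -0.83 ± 0.19. Rgs2 is known as an inducible gene, and the sum of 13 immediate early genes, which are switched on by cell handling as well as by signalling, was 3941 to 9875 CPM in Het and 2814 to 3543 in KO isolates, and 7208 to 10940 in anti-gp120 and 5353 to 7795 in anti-IL34 isolates. Of the 13 genes 1, Jun, fell in KO isolates (log2 fold change -1.33 ± 0.25, adjusted p = 0.0316), where the list had a median of -0.89, 7 genes lower at an unadjusted p under 0.05 and 4 lower by DESeq2. In turn 0 passed in the antibody experiment by edgeR (3 at an unadjusted p under 0.05, all lower, and 2 lower by DESeq2), at a median of -0.34. The part of this list in the Rgs2 values was not tested.

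The calls depended on single isolates. In the deletion experiment, 0 of 8 members, and 0 of all genes, passed by edgeR when Het animal 20 or 23 or any 1 KO animal (3, 6 or 24) was left out, 6 without Het animal 1 and 7 without Het animal 21. By DESeq2 with all libraries 6 passed. In the antibody experiment, leaving out control animal 7 or treated animal 10 gave 0. Leaving out control animals 1 or 8 or treated animals 2 or 24 gave 1. Leaving out control animal 15 or treated animal 11 gave 7, which was also the count by DESeq2. The all-gene shares printed above are those of the main fits and do not hold for these counts. By DESeq2, 2361 of 18185 genes were called lower in KO and 1455 of 17570 in anti-IL34 isolates. Leaving out 1 mouse gave 0 to 5756 and 0 to 6905 genes in either direction. The sign of each member's log2 fold change in isolates was negative in both experiments with all libraries in the fit.

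**Figure D2:**
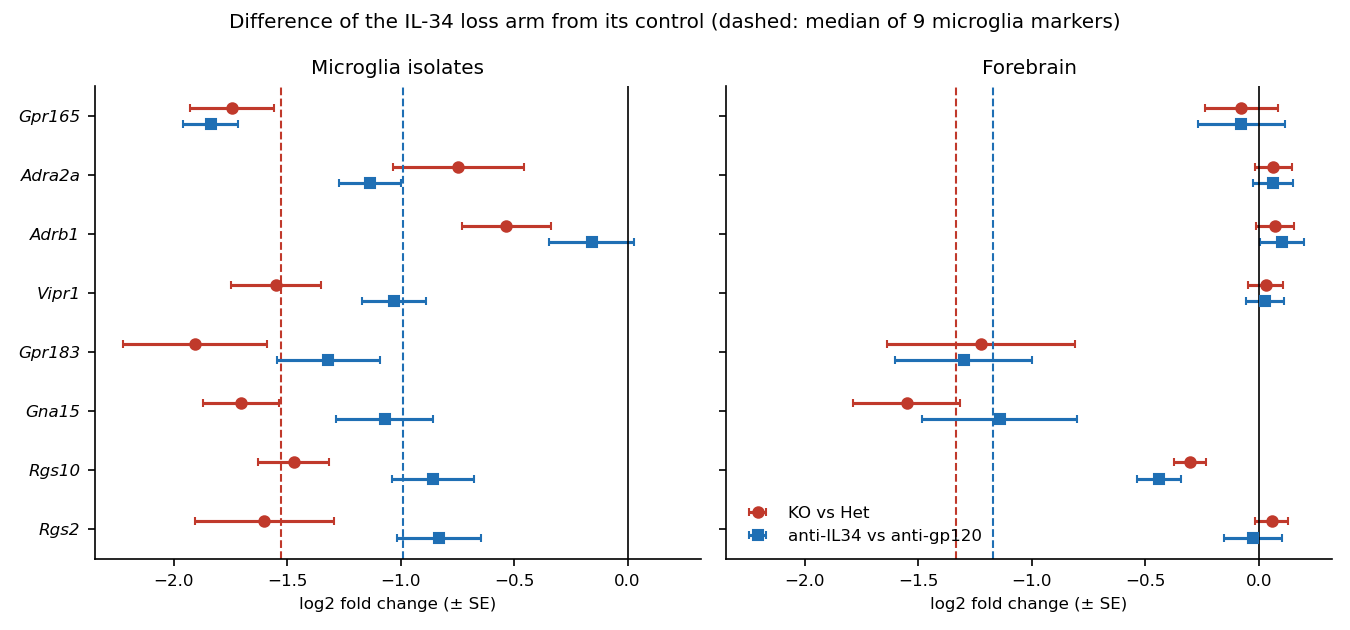
Log2 fold change of the loss arm against its control, with its SE, for KO against Het (red circles) and anti-IL34 against anti-gp120 (blue squares), in isolates (left) and forebrain (right). Dashed lines mark the median of the 9 microglia markers in the same fit. In isolates most members lie near those lines, Gpr165 lies below the blue line and Adrb1 well above both, and in forebrain only Gpr183 and Gna15 lie near them.

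Because the microglia markers were lower in the same isolates, the members were also set against the marker sum, a ratio chosen after the values were seen. Per 1000 CPM of markers, Gpr165 was at 7.21 ± 1.09 (SD, n = 4) in anti-gp120 and 4.17 ± 0.536 (SD, n = 4) in anti-IL34 isolates, a ratio of 0.579, and the arms did not overlap. In the deletion experiment the same quantity was 7.40 ± 0.719 in Het and 6.59 ± 0.757 in KO isolates, and the arms overlapped. Adrb1 per 1000 CPM of markers was higher in both loss arms, at 1.77 ± 0.316 in KO against 0.895 ± 0.313 in Het and at 1.69 ± 0.242 in anti-IL34 against 0.91 ± 0.121 in anti-gp120 isolates, with no overlap in either. Vipr1, Gpr183, Gna15, Rgs10 and Rgs2 overlapped between the arms in both experiments, with ratios of the arm means from 0.815 (Gpr183, KO) to 1.16 (Rgs2, anti-IL34). Adra2a overlapped too, at a ratio of 1.63 in KO and 0.971 in anti-IL34 isolates. The marker sum was lower in the loss arms, so any gene that fell less than the markers rises on this scale. In forebrain, Vipr1 overlapped between the arms in CPM, yet its ratio was 115 ± 11.0 in Het and 256 ± 30.6 in KO mice. The share of all genes whose arms separate on this scale was not computed, so the separation is not particular to Adrb1 or Gpr165. These ratios do not tell fewer microglia from less RNA of these genes per microglia, and the markers are themselves genes that differ between the arms.

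**Figure D3:**
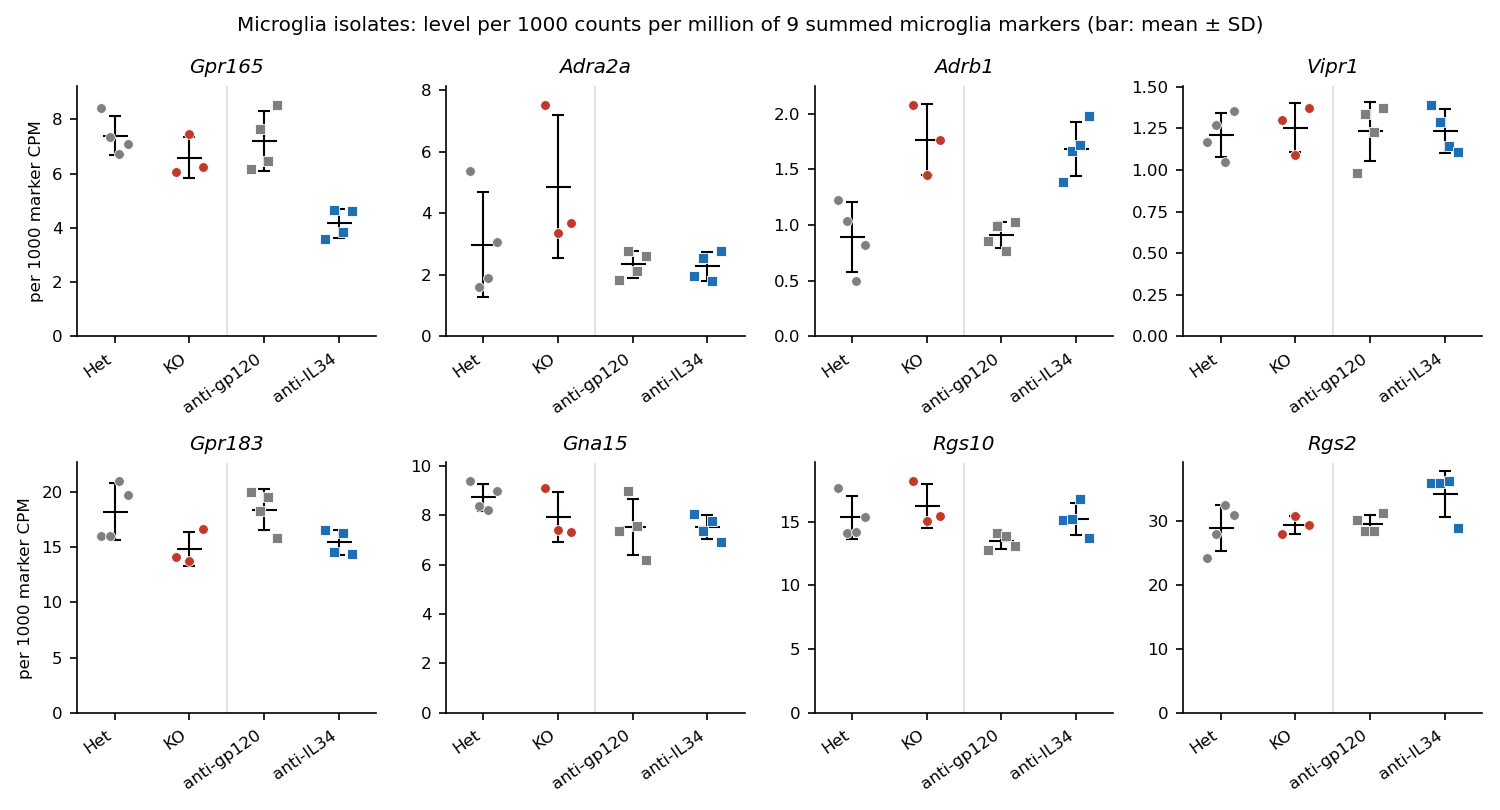
Member level per 1000 CPM of 9 summed microglia markers in each isolate, on linear axes from 0. Points are libraries (grey controls, red KO, blue anti-IL34) and bars are the mean ± SD. The arms separate for Gpr165 in the antibody experiment and for Adrb1 in both experiments, and overlap for the other members. Any gene that falls less than the markers rises on this scale.

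In whole forebrain 5 of the 8 genes overlapped between the arms in both experiments, and Gna15, Gpr183 and Rgs10 were separate in at least 1. In bulk tissue, fewer cells of a type and less RNA per cell cannot be told apart. In the deletion experiment 2 of 8 members were lower in every KO than in every Het forebrain, at a background of 5.24% of genes, and 1 of 8 passed in the lower direction, against 0.615% of 19343 genes. In the antibody experiment 2 of 8 were non-overlapping, against 2.07% of genes, and 0 of 8 passed by edgeR (DESeq2 passed 1, and 3 had an unadjusted p under 0.05), against 0.525% of 17143 genes. The members' median log2 fold change was -0.02 for KO and -0.05 for anti-IL34, beside 0.00 over all genes in both, while the 9 microglia markers had medians of -1.33 and -1.17.

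Gna15 in forebrain was at 1.74, 1.37, 1.32 and 1.57 CPM in Het and 0.460, 0.590 and 0.426 in KO mice, without overlap (log2 fold change -1.55 ± 0.23). It was at 2.58, 3.10, 2.37 and 2.46 CPM in anti-gp120 and 2.66, 0.665, 0.985 and 1.15 in anti-IL34 mice (-1.14 ± 0.34), where anti-IL34 animal 2 lay within the control range and the other 3 lay below it. The KO count of 1 member passing was 0 without KO animal 3, and Gna15 alone passed in the antibody experiment without anti-IL34 animal 2.

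Gpr183 in forebrain was near the limit of the counts, at 0.845, 0.554, 0.312 and 0.824 CPM in Het and 0.184, 0.388 and 0.237 in KO mice. The arms overlapped through KO animal 6 and Het animal 21 (log2 fold change -1.22 ± 0.42). It was at 0.874, 1.00, 1.71 and 1.02 CPM in anti-gp120 and 0.325, 0.356, 0.415 and 0.597 in anti-IL34 mice, without overlap (-1.30 ± 0.30).

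Rgs10 in forebrain was at 16.7, 16.9, 16.6 and 15.7 CPM in Het and 13.9, 13.8 and 11.9 in KO mice (log2 fold change -0.30 ± 0.07). It was at 19.5, 17.9, 20.8 and 18.04 CPM in anti-gp120 and 14.8, 14.2, 12.4 and 15.7 in anti-IL34 mice (-0.44 ± 0.10). Both experiments were without overlap, but the differences were small beside those of the isolates, at 81.0% and 73.8% of control.

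The remaining 5 members overlapped between the arms in forebrain in both experiments. Gpr165 was at 10.5, 15.8, 12.1 and 8.85 CPM in Het and 11.7, 10.4 and 11.7 in KO forebrain, and at 9.31, 10.4, 7.36 and 12.2 in anti-gp120 and 6.43, 11.1, 8.61 and 11.2 in anti-IL34 forebrain. Its log2 fold changes were -0.08 ± 0.16 and -0.08 ± 0.19, in the same mice whose isolates were at less than 30% of control. Adra2a ran from 11.4 to 16.7 CPM over the 15 forebrain libraries, Adrb1 from 15.9 to 23.8, Vipr1 from 24.7 to 31.9 and Rgs2 from 40.6 to 66.2. Their log2 fold changes lay between -0.03 (Rgs2, anti-IL34) and 0.10 (Adrb1, anti-IL34), each with an SE of at most 0.13.

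**Figure D4:**
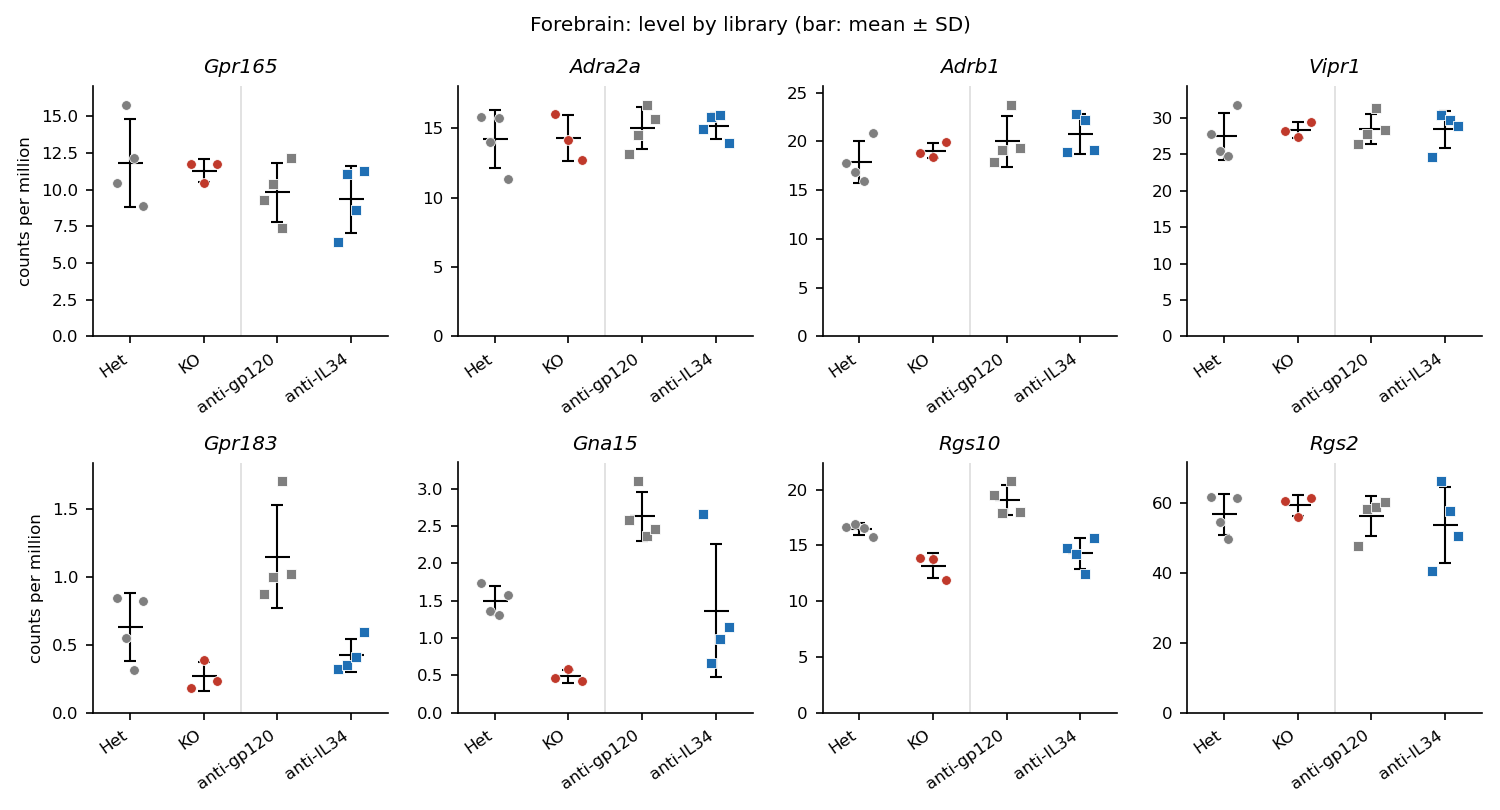
Level in each forebrain library, in CPM on linear axes that start at 0, with points and bars as for the isolates. Gna15 and Rgs10 in the deletion experiment and Gpr183 and Rgs10 in the antibody experiment show no overlap between arms, and the others do.

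The forebrain fold changes can be set beside the concentration of each gene in the isolates of control mice. Gpr183 and Gna15, at log2 differences of 8.38 and 5.92 between isolate and forebrain, had forebrain fold changes from -1.55 to -1.14, and Rgs10, at 3.59, had -0.30 and -0.44. Gpr165 and Rgs2, at 3.32 and 2.96, and the 3 less concentrated receptors had forebrain fold changes from -0.08 to 0.10. Of these only Gna15 in KO forebrain was past the threshold. The order is a description over 8 genes that share the same libraries and were chosen on their arm differences.

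**Figure D5:**
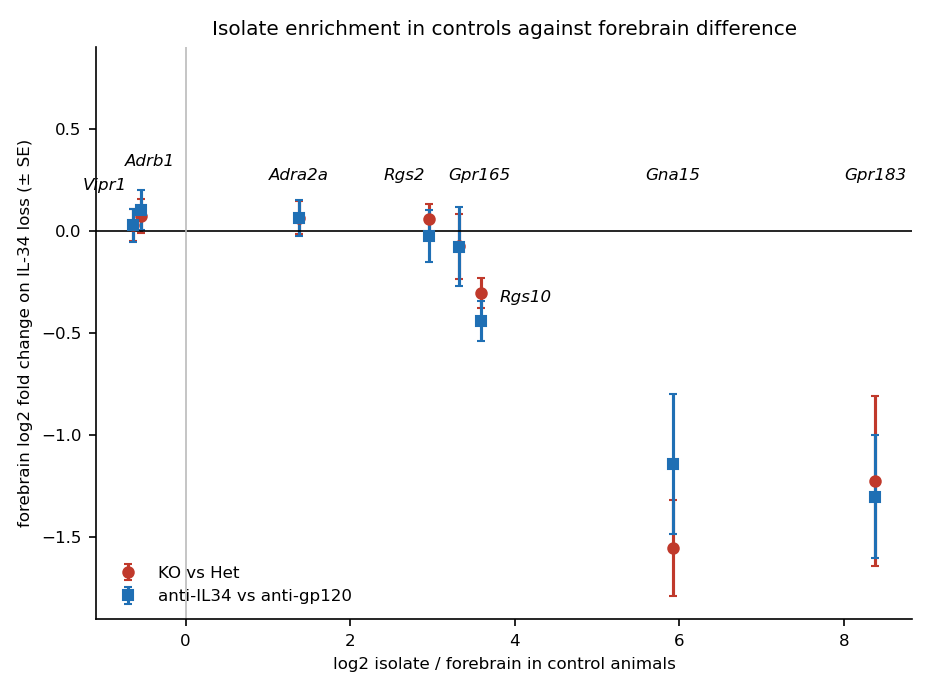
Each member's log2 difference between isolate and forebrain in the 8 control mice (horizontal) against its forebrain log2 fold change on IL-34 loss with its SE (vertical), for KO (red circles) and anti-IL34 (blue squares). Members left of 4 on the horizontal axis lie at or near 0 apart from Rgs10, and Gna15 and Gpr183 on the right lie below -1.

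A model with both tissues gave the difference between the isolate effect and the forebrain effect, which is also a description for these genes. In the deletion experiment 4 of 8 members were past the threshold, Rgs2 (-1.63 ± 0.34), Gpr165 (-1.64 ± 0.29), Vipr1 (-1.56 ± 0.21) and Rgs10 (-1.13 ± 0.17), at a background of 2.98% of 20107 genes. In the antibody experiment 3 were past it, Gpr165 (-1.77 ± 0.26), Adra2a (-1.20 ± 0.16) and Vipr1 (-1.06 ± 0.16), at a background of 0.0924% of 18399 genes. With the mouse as a replicate block, which pairs the tissues of 1 animal, 0 of 8 members and 0 of all genes passed in either experiment by edgeR. The count was also 0 without Het animal 20 or 23 or any 1 KO animal, and without control animal 1, 7 or 8 or treated animal 10 of the antibody experiment, where it was 1 without treated animal 24 and 5 without control animal 15. Over all genes, leaving out 1 mouse gave 0 to 5688 calls in the deletion and 0 to 5565 in the antibody experiment. Gna15 and Gpr183, low in forebrain as well, had differences of -0.12 ± 0.29 and -0.67 ± 0.64 in the deletion experiment and 0.08 ± 0.42 and -0.04 ± 0.53 in the antibody experiment.

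Whether deletion and antibody acted to different extents was tested over all 15 libraries of a tissue. In the isolates 0 of 8 members differed by edgeR (DESeq2 passed 0, and 3 had an unadjusted p under 0.05), at a background of 0% of 18732 genes by edgeR (740 unadjusted, 35 by DESeq2). The estimates of the deletion effect minus the antibody effect ran from -0.76 ± 0.36 for Rgs2 to 0.45 ± 0.36 for Adra2a, and all adjusted p were 1.00. The estimate for Gpr165 was 0.11 ± 0.22. In forebrain 0 of 8 differed by edgeR (DESeq2 passed 0, and 0 had an unadjusted p under 0.05), against 0.0101% of 19724 genes, with estimates from -0.41 ± 0.46 for Gna15 to 0.12 ± 0.12 for Rgs10. The SE reached 0.55 for Gpr183 in forebrain, and a p above the threshold does not show that deletion and antibody acted alike. Males and females did not pass for any member by edgeR or DESeq2, in forebrain (background 0.071% of genes, 1 member at an unadjusted p under 0.05) or in isolates (background 0.0534%, 1 member at an unadjusted p under 0.05). The largest sex estimate in the isolates was for Adra2a, 0.39 ± 0.18 higher in males (adjusted p = 1.00).

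Other genes of the same pathways were taken from lists, and their arm comparisons by edgeR are given with adjusted p. The lists too were chosen with earlier results of these data known, so their counts are not independent evidence of a direction. Since 0 of all genes passed in KO isolates when 1 of the 5 animals named above was left out, each call there is lost in those fits. The counts of listed genes in KO isolates are to be read against the 5.22% of all genes called lower there, and counts of 1 in 13 to 19 genes lie near that share. In anti-IL34 isolates 0 of all genes passed without control animal 7 or treated animal 10, so the calls named there are lost without either. Of the VIP and PACAP genes other than Vipr1, 0 of 4 tested in KO isolates passed by edgeR (2 at an unadjusted p under 0.05, both higher, and 2 higher by DESeq2). Of the oxysterol genes 1 of 3, Cyp27a1, a sterol hydroxylase, fell in KO isolates (log2 fold change -0.62 ± 0.12, adjusted p = 0.0383). Among 19 tested aminergic and acetylcholine receptors 1 fell in KO isolates, the histamine receptor Hrh2 (-1.18 ± 0.22, adjusted p = 0.0322). Of 19 lipid and adenosine receptors 2 fell, the lysophosphatidic acid receptors Lpar5 (-1.42 ± 0.17, adjusted p = 0.0136) and Lpar6 (-0.80 ± 0.14, adjusted p = 0.0287). By edgeR 0 genes of these lists were called higher in KO isolates, whereas DESeq2 called 1 adrenergic, 2 VIP and PACAP, 1 oxysterol, 1 aminergic or acetylcholine and 2 lipid or adenosine genes higher. At an unadjusted p under 0.05 in edgeR the higher counts were 1, 2, 1, 4 and 4 in that order.

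Of the orphan and chemoattractant-like receptors 7 of 14 tested fell in KO isolates, where 5.22% of all genes were called lower, and the list's median was -1.10. The 4 with the smallest p were Gpr160 (-1.11 ± 0.13), the chemerin receptor Cmklr1 (-1.31 ± 0.16), the complement receptor C5ar2 (-1.22 ± 0.18) and the fractalkine receptor Cx3cr1 (-1.60 ± 0.25), with adjusted p of 0.0136 to 0.0206. In anti-IL34 isolates, where 0.603% of 17570 genes were called lower, 2 of 14 fell by edgeR and 4 by DESeq2. The 2 were Cx3cr1 (-1.16 ± 0.18, adjusted p = 0.0442) and the lysophosphatidylserine receptor Gpr34 (-1.29 ± 0.21, adjusted p = 0.0499). Cx3cr1 and Gpr34 also fell in forebrain, where Gpr34 was at -1.29 ± 0.11 in KO (adjusted p = 6.95e-05) and -1.60 ± 0.12 in anti-IL34 mice (adjusted p = 0.000166). The lysophosphatidic acid receptor Lpar1 fell in KO forebrain (-0.36 ± 0.06, adjusted p = 0.0120), beside the oligodendrocyte gene Mbp (-0.37 ± 0.06), whose part in it was not tested, and the sphingosine-1-phosphate receptor S1pr1 fell in anti-IL34 forebrain (-0.34 ± 0.06, adjusted p = 0.0217).

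Among the transducers, 0 of 12 other alpha subunits passed in KO isolates by edgeR (5 higher and 1 lower at an unadjusted p under 0.05, and 2 higher by DESeq2), at a median of 0.00. In anti-IL34 isolates 0 of 12 passed (1 higher and 2 lower unadjusted, and 2 lower by DESeq2), at a median of -0.01. Of 13 beta and gamma subunits Gngt2 fell in KO isolates (-1.31 ± 0.18, adjusted p = 0.0161) and in anti-IL34 forebrain (-1.50 ± 0.28, adjusted p = 0.0407). Of 17 other RGS genes Rgs19 fell in KO isolates (-0.94 ± 0.15, adjusted p = 0.0219), and the list's median was 0.25, with 5 higher and 2 lower by DESeq2. Of 30 cyclic AMP and phospholipase effectors 3 fell there, again beside 5.22% of all genes: the Gq effector Plcb2 (-1.51 ± 0.17, adjusted p = 0.0136), the adenylyl cyclase Adcy7 (-1.18 ± 0.19, adjusted p = 0.0216) and the phosphodiesterase Pde3b (-1.58 ± 0.30, adjusted p = 0.0325). Pde3b also fell in anti-IL34 isolates (-1.13 ± 0.16, adjusted p = 0.0374) and forebrain (-0.49 ± 0.09, adjusted p = 0.0336). Of 7 receptor kinases and arrestins, Arrb2, an arrestin that ends receptor signalling, fell in KO isolates (-1.23 ± 0.16, adjusted p = 0.0145). By DESeq2 the calls in KO isolates were 0 higher and 8 lower for the orphan and chemoattractant-like receptors, 4 higher and 1 lower for beta and gamma subunits, 6 higher and 4 lower for effectors, and 1 higher and 2 lower for kinases and arrestins. Microglia markers were lower in the same isolates, at medians of -1.53 and -0.99. By edgeR 9 of 9 fell in KO isolates and 3 of 9 in anti-IL34 isolates, beside 5.22% and 0.603% of all genes.

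Across the 15 isolates, after the mean of each experiment was taken out, log2 levels of the members followed one another, with Pearson r from 0.57 (Adrb1 and Rgs2) to 0.991 (Gna15 and Rgs10). In the 15 forebrain libraries r ran from -0.441 (Adrb1 and Gna15) to 0.885 (Adrb1 and Vipr1), and Gpr183, Gna15 and Rgs10 were related to each other at 0.678 to 0.808. The genes most like Gpr165 across isolates were Ago1 (r = 0.989), P2ry13 (0.987) and Arsb (0.986). For Vipr1 they were Cmtm6 (0.986), Elmo1 and Plcl2 (0.982 each), and for Gpr183 Dock10 (0.996), Laptm5 (0.995) and Pip4k2a (0.994). Gna15 was most like Cyth4 (0.995), Sash3 (0.994) and Lyl1 (0.993), Rgs10 like Gna15, Rapgef5 and Selplg (0.991 each), and Rgs2 like P4ha1 (0.993), H2-Oa and St3gal6 (0.991 each). Adra2a and Adrb1 had lower best matches, Kbtbd12 at 0.887, Gm11638 at 0.881 and Sort1 at 0.873 for Adra2a and Gm3248 at 0.885, Gm16118 at 0.873 and Pdcd7 at 0.863 for Adrb1. All points share libraries, arms and microglial content, so these values describe the libraries and carry no p.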

How the data were processed

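RNA was measured in 30 libraries of 15 mice, made with a SMART-Seq v4 kit per the labels' protocols. The authors deposited read counts per gene, whole numbers with no normalisation, and TPM values, which equal counts divided by a deposited Length (the gene span) and rescaled. Per the submitters' processing notes, STAR 2.7.5c, featureCounts 1.6.3 and R 4.4.0 were used with build GRCm38, and strand use is not given in the sources used here. Columns that matched no labelled sample, 6 in each file of the series, were not used. The 8 rows without a name held 2.79e-05% of counts.

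The tests on counts used edgeR 4.0.16 under R 4.3.3 (quasi-likelihood test, TMM scaling, filterByExpr on low counts, sex as a covariate, Benjamini-Hochberg adjustment over all genes tested, threshold 0.05). DESeq2 1.42.0, other scaling, no filter, no sex terms, 1 fit per tissue, the mouse as a replicate block and leaving out each mouse were alternatives. Correlations used log2(CPM + 0.5) with a pseudocount of 0.5 CPM. The scripts were tested on simulated data. Both tissues of a mouse share its number, so the mouse pairs them: same-animal deviations correlated at a median of 0.144 (0.0548 to 0.265), above 0.1 in 11 of 15, against -0.0487 for other animals of the arm. Replicates differed by more than sampling noise in all 42 pairs (chi-square at least 5.85 per degree of freedom). Genes named are the members, up to 4 passing genes per list and comparison by p, and the 3 genes most correlated with each member. Some results of the gene lists are not reported here. The members and lists were chosen with earlier results of these data known.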

Additional observations from a re-analysis of the deposited data

Results flagged for a closer look

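Among the 48 groups of 4 mice examined, 2 held a library apart from the others, where chance flags about 1 group in 20. Gpr165 was at 122 CPM in the isolate of Het animal 21, above the other Het isolates. The same isolate had the highest sum of microglia markers of its arm, 18150 CPM, and per 1000 CPM of markers its Gpr165, at 6.74, was the lowest of the arm. Rgs2 was at 47.7 CPM in the forebrain of anti-gp120 animal 1, below the others.

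In the fit without the mouse as a block, the interaction of tissue and arm was past the threshold for 4 members in the deletion experiment. They were Rgs2 (-1.63), Rgs10 (-1.13), Gpr165 (-1.64) and Vipr1 (-1.56), on the log2 scale. In the antibody experiment it was past the threshold for Gpr165 (-1.77), Vipr1 (-1.06) and Adra2a (-1.20). These genes were chosen with this result known, and none passed with the mouse as a replicate block.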

How the results depend on the processing

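No call of a member changed direction under the alternatives run. With no filter on low counts the members passing went from 1 to 3 in KO forebrain, from 0 to 3 in anti-IL34 forebrain and from 3 to 7 in anti-IL34 isolates. By DESeq2 the last 2 became 1 and 7, with no sex terms anti-IL34 isolates gave 7, and with all 15 libraries of a tissue in 1 fit the 3 counts were 0, 1 and 6. Leaving out 1 mouse gave 0 to 1 in each forebrain comparison, 0 to 7 in each isolate comparison and 0 to 5 in each tissue by arm interaction. With the mouse as a replicate block the interactions, 4 and 3 members, both fell to 0, and the 8 calls between tissues stayed at 8.

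Counts over all genes moved more. In KO isolates 976 became 3887 by DESeq2, 2734 with 15 libraries, 2189 with no sex terms and 1993 with no filter, and 0 to 5756 when 1 mouse was left out. In anti-IL34 isolates 110 became 2015, 988, 983 and 819, and 0 to 6905. DESeq2 also moved the split of calls in KO isolates, from 950 lower of 976 to 2361 lower and 1526 higher. In KO forebrain 120 became 381 with no filter and 55 to 117 without 1 mouse, and in anti-IL34 forebrain 123 became 349, with 198 by DESeq2, 204 with 15 libraries and 25 to 126 without 1 mouse. The interaction calls, 599 for deletion, became 1569, 3635, 2400 and 0 with no filter, DESeq2, no sex terms and the block, and 0 to 5688 without 1 mouse. For the antibody 17 became 1352, 1092, 222 and 0, 48 with other size factors, and 0 to 5565 without 1 mouse. The difference between experiments went from 2 to 114, 28 and 4 in forebrain and from 0 to 1 and 35 (no filter, DESeq2) in isolates, and sex in forebrain from 14 to 150 with no filter. The cause was not tested. Forebrain counts of 5 to 66 for Gpr183 and 9 to 195 for Gna15 limit the precision of their values.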

Other observations

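In the control mice, 15775 of 18752 genes differed between isolate and forebrain, 7648 higher and 8127 lower in the isolate, and counts of receptors outside the 8 genes stand beside that share of 84.1%. All 14 tested orphan and chemoattractant-like receptors were higher in the isolate, at a list median of 5.54 on the log2 scale, whereas 22 of 22 tested aminergic and acetylcholine receptors were lower, at a median of -3.95. Lipid and adenosine receptors were divided, with 11 higher and 4 lower of 19. Among the adrenergic receptors 5 of 7 were lower, including Adra1a (-2.61 ± 0.24, SE) and Adra2c (-2.27 ± 0.30). Ch25h, which makes the precursor of the oxysterol ligands of Gpr183, was higher in the isolate by 4.03 ± 0.39 (adjusted p = 6.76e-08).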
